A study of Homo sapiens with 8 samples.

Results

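Untreated LNCaP cells were set against untreated 22Rv1 cells to describe how these prostate cancer lines differ in gene expression before any treatment. The difference is the log2 signal of the untreated LNCaP array minus that of the untreated 22Rv1 array, so that 1 unit is a doubling, and it was read for the 22842 of 54675 probe sets (41.8%) whose log2 signal was at least 4 in either array, which is called detected here. These probe sets cover 11274 detected genes of 19775 with a probe set of their own, and where a gene had several, the one brightest on average over the arrays stands for it. LNCaP is an established line from a lymph node metastasis of prostate carcinoma, and 22Rv1 is an established line from the CWR22 xenograft, which was passaged in castrated mice. The study profiled both lines on Affymetrix arrays to find genes with nonsense or frameshift mutations in cells with unstable microsatellites. Each line gave 4 arrays: untreated, after 4 hours in 10 mM caffeine, and after 4 more hours in 2 μg/ml actinomycin D with caffeine or in actinomycin D alone. Caffeine was used to block nonsense-mediated decay and actinomycin D blocks transcription, and all cells grew in the same medium with serum. There was 1 array per line and treatment, so the untreated difference has no replicate check, and each line stands for itself and not for a class of tumours.

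Prostate luminal cells make secreted proteases and metabolise steroids, and most prostate cancers keep this luminal programme, with keratins 8 and 18 and the cadherin of epithelia on their surface. Some tumours that no longer depend on androgen gain neuroendocrine features, such as chromogranins and peptide hormones. Line identity is also seen in the genes that hold cells together, handle metals, steroids and aldehydes, and receive signals.

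The deposited signals were normalized so that all arrays share 1 distribution, so a signal is relative to the rest of its array. In these bulk samples fewer cells that make a transcript and less of it per cell cannot be told apart. The 18 hybridization controls were on average -0.12 apart between the untreated arrays and the 24 poly-A controls -0.66. The 3 probe sets for 18S rRNA were 0.51 apart in the untreated pair and 4.63 apart in the pair treated with actinomycin D and caffeine, and their part in the differences of that pair was not tested. Of 13 detected housekeeping genes, 0 were apart by more than 2, with a median of -0.16. Genes that share all their probe sets with others were not analysed here.

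The lines were close for most genes and far apart for a minority. Of the detected genes, 6986 (62%) were within 1 of each other, while 764 (6.78%) were higher in LNCaP by more than 2, which is 4 times on the linear scale, and 838 (7.43%) were lower. Counted by probe set, 1720 (7.53%) lay above 2 and 1721 (7.53%) below -2. The tail was longer on the side of 22Rv1: 140 genes were higher in LNCaP by more than 4 and 235 were lower, and beyond 8 there were 5 and 14. For 590 genes LNCaP was above the detection floor and 22Rv1 below it, and for 730 genes the reverse was true.

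The direction of the difference was then read in the 3 treated pairs, which share no array with the untreated pair. Of the 3441 probe sets apart by more than 2, 3251 (94.5%) had the same sign in all 3 treated pairs and 4 had the opposite sign in all 3. The share was 91.6% for the 1720 probe sets higher in LNCaP and 97.4% for the 1721 lower ones. It was 99.1% of the 662 probe sets apart by more than 4, 83% of the 5578 apart by 1 to 2, and 52% of the 13823 within 1. The sizes were smaller after treatment: the 764 genes higher in LNCaP had a median difference of 2.79 untreated, 2.45 with caffeine, 2.32 with actinomycin D and caffeine and 2.28 with actinomycin D alone, and the 838 lower genes had medians of -3.08, -2.95, -2.80 and -2.92. These genes were picked by their untreated values, and the narrowing was not tested.

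**Figure D1:**
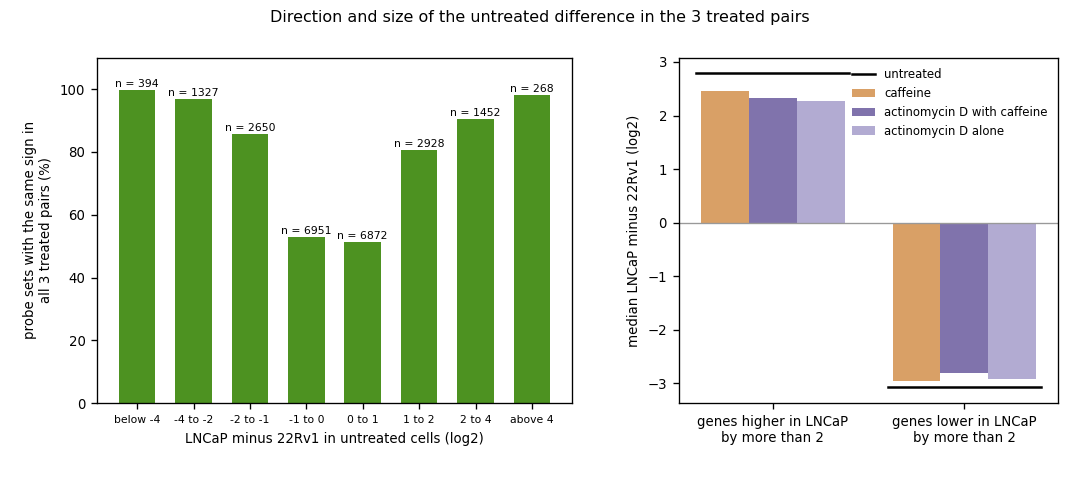
Left, share of detected probe sets (%) whose LNCaP minus 22Rv1 difference has the same sign in all 3 treated pairs, by its log2 size in untreated cells, with the number of probe sets above each bar; the share is lowest within 1 of 0 and reaches 99.7% below -4. Right, median log2 difference of the genes higher and lower in LNCaP by more than 2, as a black line in the untreated pair and as bars in the treated pairs; all bars lie on the side of the untreated median.

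A limma fit over all 8 arrays, with treatment as a block, tested the line difference in 21453 probe sets with a mean signal of at least 4. The 4 pairs are the only repeats of the contrast, nothing in the labels says that the plates came from separate cultures, and the p-values measure the spread of the line difference over treatments. At an adjusted p of 0.05, 5870 probe sets (27.4%) were higher in LNCaP and 5633 (26.3%) lower. Over the representative probe sets of 10842 genes the counts were 3087 higher (28.5%) and 2906 lower (26.8%), so a call by limma in either direction was common and the counts of each gene list below are to be read against these shares.

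The 12 genes highest in LNCaP relative to 22Rv1 among those with the same sign in all pairs lay at or under the detection floor in 22Rv1. MME, the membrane endopeptidase neprilysin that cleaves peptide hormones, had log2 signals of 11.76, 11.47, 10.27 and 11.07 in LNCaP cells (untreated, caffeine, actinomycin D with caffeine, actinomycin D alone, the order used throughout), against 2.75, 2.52, 2.49 and 3.02 in 22Rv1 cells. ACKR3, a scavenging receptor for the chemokine CXCL12, had signals of 10.37, 10.69, 10.72 and 10.74 in LNCaP cells, against 2.27, 2.27, 2.27 and 2.30 in 22Rv1 cells. Neither gene had a signal above the floor on any 22Rv1 array. The untreated differences were 9.02 for MME and 8.10 for ACKR3. GCG, which encodes the glucagon precursor, had signals of 10.36, 10.39, 10.78 and 10.32 in LNCaP cells, against 2.29, 2.57, 2.53 and 2.52 in 22Rv1 cells, a difference of 8.07. The imprinted zinc finger gene PEG3 had signals of 11.57, 11.14, 8.57 and 9.73 in LNCaP cells, against 3.33, 3.72, 3.90 and 3.33 in 22Rv1 cells. Its LNCaP level was lower on the arrays treated with actinomycin D, and the lines still did not overlap. The other genes were ATP11A (8.52), a phospholipid flippase, TNFRSF19 (7.46), LOC102723847 (7.45), the cadherin CDH26 (7.25), ANKRD29 (6.89), the prostaglandin F receptor PTGFR (6.86), the testis bromodomain gene BRDT (6.79) and GASK1B (6.72). These genes were chosen by their untreated values and by a constant sign over the pairs, so their values are a description with no test. On the 3 treated arrays of each line the gap between the lines was 3.46 to 8.38. A choice by a large untreated difference and a constant sign makes such a gap likely, so it is no separate check. With signals under 4 set to 4 the untreated differences of the 12 were 5.06 to 7.76. The 7 of them that had other detected probe sets had 9 in all, and all 9 had the same sign, though 1 of those of ATP11A was only 0.47 apart.

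The 12 genes lowest in LNCaP lay under the floor in untreated LNCaP cells, except SFN. RGS2, a regulator that speeds the switching off of G proteins, had log2 signals of 2.78, 2.81, 2.69 and 2.66 in LNCaP cells, against 14.04, 13.99, 11.34 and 10.47 in 22Rv1 cells. This untreated difference of -11.26 had the largest size of all detected genes, and the level in 22Rv1 was lower on both arrays treated with actinomycin D. UCP2, an uncoupling protein of the mitochondrial inner membrane, had signals of 2.92, 2.50, 2.56 and 2.88 in LNCaP cells, against 12.90, 11.66, 11.72 and 11.72 in 22Rv1 cells. TIMP1, an inhibitor of matrix metalloproteases, had signals of 2.31, 2.32, 2.44 and 2.30 in LNCaP cells, against 11.82, 11.75, 11.68 and 11.78 in 22Rv1 cells, and was thus nearly the same on all arrays of a line. SFN, the 14-3-3 protein sigma that arrests the cycle after DNA damage, was detected in both lines, with signals of 6.08, 5.71, 4.83 and 4.52 in LNCaP cells, against 14.58, 13.93, 13.47 and 13.94 in 22Rv1 cells. The others were the simple epithelial keratin KRT19 (-9.34), COXFA4L2 (-8.89), CRIP1 (-8.76), the gap junction protein GJA1 (-8.52), DDIT4L (-8.37), the small heat shock protein HSPB6 (-8.34), the trypsin inhibitor SPINK1 (-8.33) and BEX1 (-8.32). Chosen in the same way and with the same limit, the 12 had gaps of 5.48 to 9.24 on the 3 treated arrays of each line. With signals under 4 set to 4 their untreated differences were -10.04 to -6.84, and the 4 other detected probe sets of 3 of them had the same sign.

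**Figure D2:**
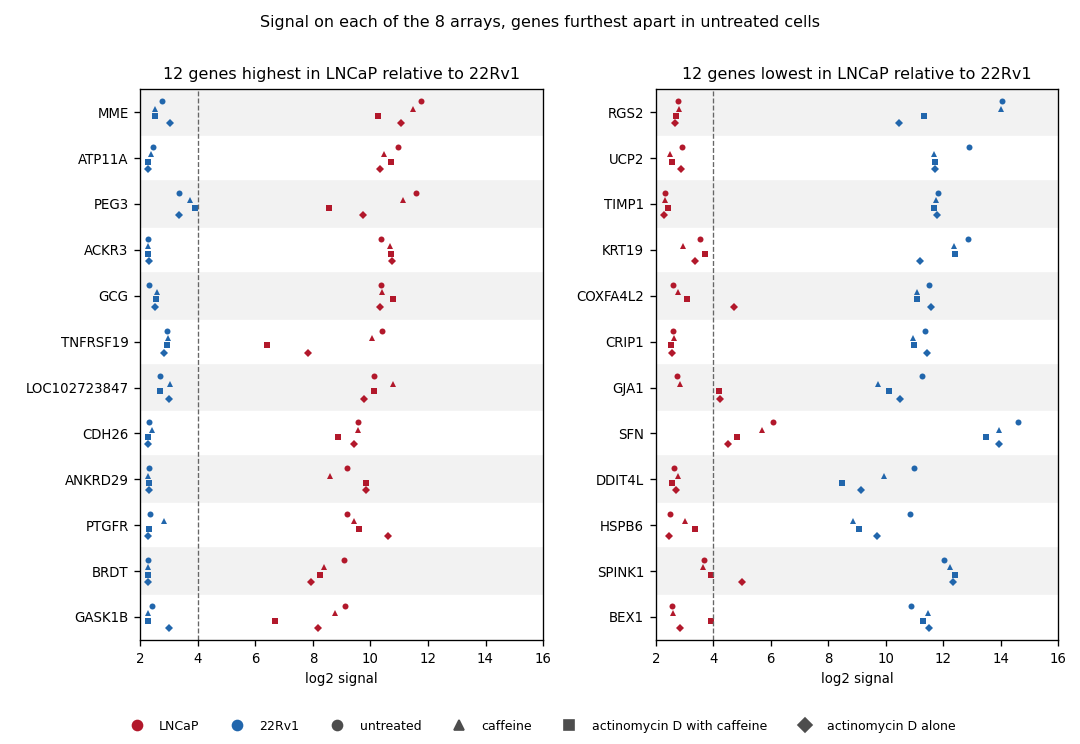
Log2 signal (x axis) on each of the 8 arrays for the 12 genes highest (left) and the 12 lowest (right) in untreated LNCaP relative to 22Rv1, 1 gene per row, with LNCaP in red, 22Rv1 in blue, marker shape for the treatment and a dashed line at the detection floor of 4. In every row the red and the blue points are apart on all arrays, and on the left all blue points lie under the floor.

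Among genes well expressed in both lines the differences reached less far, except for SFN, and asking for signal in both lines itself limits their size. Where both untreated arrays reached a signal of 6 or more, the 8 highest in LNCaP ranged up to BAMBI (6.01), a decoy receptor that dampens TGF-beta signalling, and included GRB10 (5.29), LITAF (4.71), SFT2D1 (4.56), H2BC12L (4.47), ENDOD1 (4.42), B3GALT6 (4.17) and MAOA (4.15). MAOA, which oxidises monoamines, had log2 signals of 12.01, 12.53, 12.85 and 12.83 in LNCaP cells, against 7.86, 8.25, 8.55 and 8.76 in 22Rv1 cells, so the gap was nearly constant over the treatments. Below SFN, the lowest in LNCaP were the heparin-binding growth factor MDK (-5.48), CSRNP2 (-5.44), the galectin LGALS1 (-5.41), ID2 (-5.09), the fatty aldehyde dehydrogenase ALDH3A2 (-4.91), the tubulin TUBA1A (-4.90) and ZNF789 (-4.75). These 16 were again picked by the untreated values. On the treated arrays they were apart by 1.35 to 4.76 for the 8 higher genes and by 1.24 to 7.76 for the 8 lower ones. Over all genes apart by more than 2, 632 had other detected probe sets, and 898 of these 996 (90.2%) had the same sign, 752 (75.5%) by more than 1.

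Of the detected genes, 9276 had a start in the RefSeq promoter table of GRCh38.p14, and 4 of these promoters are shown to set a CpG-rich beside a CpG-poor one on each side of the difference. They were chosen after the values were seen. Each sequence runs 5′ to 3′ from 250 bases before the transcription start to 50 after it, with each CpG in capitals: BAMBI at chr10:28677271-28677570 on the + strand, GCG at chr2:162152198-162152497 on the - strand, RGS2 at chr1:192808789-192809088 on the + strand and SPINK1 at chr5:147831622-147831921 on the - strand.
BAMBI: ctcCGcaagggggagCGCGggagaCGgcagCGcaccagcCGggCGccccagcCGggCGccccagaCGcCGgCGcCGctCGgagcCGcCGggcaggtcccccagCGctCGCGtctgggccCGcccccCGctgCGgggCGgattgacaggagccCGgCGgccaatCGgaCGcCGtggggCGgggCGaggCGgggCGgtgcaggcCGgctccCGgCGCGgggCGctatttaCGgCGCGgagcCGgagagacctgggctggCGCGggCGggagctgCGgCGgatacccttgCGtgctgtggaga
GCG: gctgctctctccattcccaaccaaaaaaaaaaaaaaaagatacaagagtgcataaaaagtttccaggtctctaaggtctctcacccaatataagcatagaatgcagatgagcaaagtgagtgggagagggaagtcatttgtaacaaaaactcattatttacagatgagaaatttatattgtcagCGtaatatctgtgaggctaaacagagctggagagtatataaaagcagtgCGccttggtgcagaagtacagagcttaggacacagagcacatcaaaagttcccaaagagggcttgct
RGS2: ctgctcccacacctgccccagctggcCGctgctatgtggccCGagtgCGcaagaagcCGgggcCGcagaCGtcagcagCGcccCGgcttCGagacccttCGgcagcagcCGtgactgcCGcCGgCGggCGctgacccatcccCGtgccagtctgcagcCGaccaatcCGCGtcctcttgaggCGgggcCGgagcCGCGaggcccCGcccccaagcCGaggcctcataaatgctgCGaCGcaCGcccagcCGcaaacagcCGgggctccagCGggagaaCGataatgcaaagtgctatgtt
SPINK1: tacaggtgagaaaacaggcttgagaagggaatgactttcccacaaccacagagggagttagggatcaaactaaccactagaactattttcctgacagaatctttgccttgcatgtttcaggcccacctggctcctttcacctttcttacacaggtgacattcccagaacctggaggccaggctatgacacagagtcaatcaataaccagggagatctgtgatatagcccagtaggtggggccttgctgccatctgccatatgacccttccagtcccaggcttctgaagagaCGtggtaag
The promoters of BAMBI, higher in LNCaP, and of RGS2, lower in LNCaP, held 47 and 32 CpG, with 0.993 and 0.888 of the number their C and G content would give. Those of GCG, higher in LNCaP, and of SPINK1, lower in LNCaP, held 2 and 1 CpG, with ratios of 0.168 and 0.0549. Genes on either side of the difference thus include CpG-rich and CpG-poor promoters. The letters TATAAA were read on both strands in 300 bases and stood in the GCG promoter alone of the 4, and GGGCGG, which itself holds a CpG, stood in those of BAMBI and RGS2. In all 35116 promoters of the table, TATAAA was in 11.5% and GGGCGG in 45%.

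Among detected genes, CpG-poor promoters were more frequent in those far apart than in those close together. A ratio under 0.4 was found in 24.1% of the 116 promoters of genes higher in LNCaP by more than 4 and in 13.2% of the 506 of genes higher by 2 to 4. It was found in 18.2% of the 187 promoters of genes lower in LNCaP by more than 4, in 14.4% of the 459 of genes lower by 2 to 4, and in 7.22% of the 5801 of genes within 1. Over all detected genes with a promoter the share was 8.67%, and over all 35116 promoters of the table it was higher than in any of these groups, at 40.6%. The share with TATAAA was 11.2% among genes higher by more than 4, 11.2% among genes lower by more than 4 and 4.88% among genes within 1. It was 5.21% over all detected genes and 11.5% over all promoters of the table. These shares are a description over genes and carry no test.

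The luminal prostate label held in both lines. Of 32 listed luminal and androgen-regulated genes 30 had a probe set of their own and 28 were detected, of which 5 were higher in LNCaP by more than 2 and 2 lower, with a median of 0.13 against 0.02 over all detected genes. KLK2, a kallikrein protease secreted by luminal cells, had log2 signals of 10.44, 10.70, 9.80 and 9.13 in LNCaP cells, against 9.90, 10.23, 10.68 and 10.25 in 22Rv1 cells. KLK3, which encodes prostate-specific antigen, had signals of 7.91, 7.96, 6.77 and 6.64 in LNCaP cells, against 8.33, 8.62, 9.12 and 9.32 in 22Rv1 cells. KLK2 overlapped between the lines (limma adjusted p = 0.563). In KLK3 the lines were close without treatment and further apart on the arrays with actinomycin D. Its limma adjusted p of 0.0266 is for the mean line difference over the 4 treatments, and the parting was not tested. FOLH1, the prostate-specific membrane antigen, was 2.53 higher in untreated LNCaP, but 0.27 and 0.53 apart on the arrays with actinomycin D. The limma adjusted p for its mean line difference over the 4 treatments was 0.0431. ACP3, prostatic acid phosphatase, was near the floor in untreated cells of both lines, at 4.18 in LNCaP and 4.08 in 22Rv1. The transcription factors HOXB13 (0.44) and FOXA1 (0.09) differed by under 1.

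Single luminal genes parted further. ABCC4, an exporter of cyclic nucleotides and prostaglandins, had log2 signals of 11.66, 11.82, 11.42 and 11.79 in LNCaP cells, against 5.07, 5.21, 5.37 and 5.69 in 22Rv1 cells, a difference of 6.58. The cold-sensing channel TRPM8 (4.63), the surface protease TMPRSS2 (3.28) and the transporter SLC45A3 (2.91) were also higher in LNCaP, in all 4 pairs. FKBP5, a chaperone partner of steroid receptors, had signals of 10.96, 10.29, 10.20 and 9.98 in LNCaP cells, against 13.28, 12.61, 12.56 and 12.73 in 22Rv1 cells. FKBP5 (-2.32), the elongation factor ELL2 (-2.35) and the kallikrein KLK4 (-1.74) were thus lower in LNCaP in all 4 pairs. Limma called 13 members of the list higher and 9 lower, and 23 of the 28 kept their sign in all treated pairs.

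Epithelial markers were present in both lines, at unequal levels. CDH1, the cadherin of epithelial junctions, had signals of 12.14, 11.88, 11.80 and 11.85 in LNCaP cells, against 11.86, 11.52, 11.48 and 11.59 in 22Rv1 cells, and the lines did not differ past the threshold (limma adjusted p = 0.0974), although its other probe set was -1.68 apart in untreated cells. EPCAM was 1.16 apart untreated and -0.14 with actinomycin D and caffeine, and the limma adjusted p for its mean line difference over the 4 treatments was 0.0606. Of 23 keratins with 19 probe sets only 5 were detected, of which 1 was higher in LNCaP by more than 2 and 3 were lower. KRT8 had signals of 9.33, 8.90, 9.91 and 9.48 in LNCaP cells, against 12.07, 12.32, 12.39 and 12.48 in 22Rv1 cells. Its partner KRT18 (-1.01), KRT7 (-2.92) and KRT19 (-9.34) were lower in LNCaP as well, and KRT10 (2.03) was higher. Of 13 basal epithelium markers with a probe set, 6 were detected, with a median of 0.20. By more than 2, SERPINB5 (3.72), a serpin of basal cells, and the integrin ITGA6 (3.05) were higher in LNCaP. CD44 (-4.93), a receptor for hyaluronan, was lower, in 6 of its 7 other detected probe sets as well, and DST was -1.36 apart. The basal keratins KRT5 and KRT14 were not among the 5 detected keratins.

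**Figure D3:**
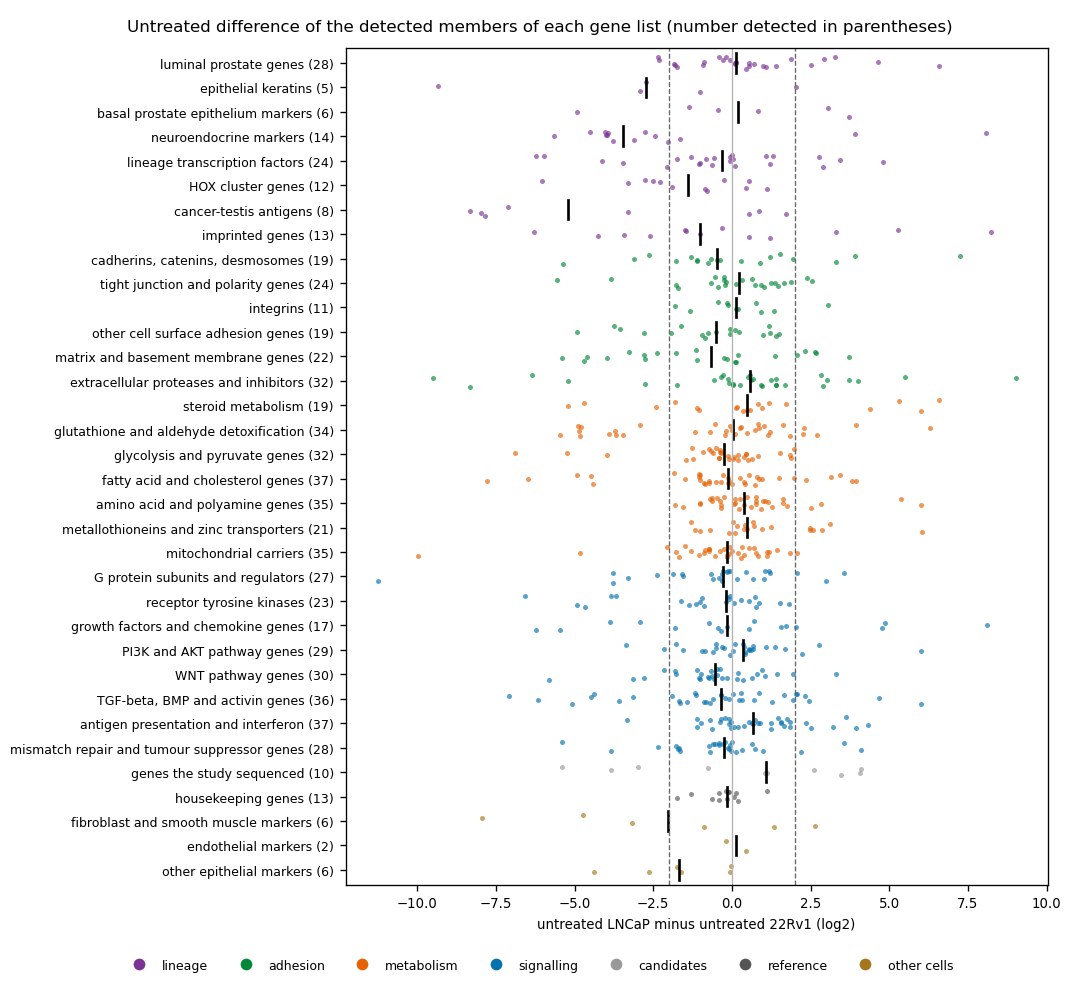
Untreated LNCaP minus untreated 22Rv1 (log2, x axis) of each detected member of the gene lists, 1 list per row with its number of detected members; points are genes coloured by theme, black bars are medians and dashed lines mark -2 and 2. The neuroendocrine and cancer-testis lists have medians of -3.44 and -5.22, while most other medians lie within 1 of 0.

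Most detected neuroendocrine markers were lower in LNCaP. Of 23 with a probe set of their own 14 were detected, of which 2 were higher by more than 2 and 11 lower, with a median of -3.44, and all 14 kept their sign in the treated pairs. Of the 14, 5 reached the floor in untreated LNCaP and 13 in untreated 22Rv1, so many entered the list only through 22Rv1, where they are high. With signals under 4 set to 4 the median was -2.71. CHGB, a chromogranin of secretory granules, had log2 signals of 3.0, 3.09, 2.47 and 2.99 in LNCaP cells, against 6.98, 7.94, 7.74 and 8.54 in 22Rv1 cells. SNAP25, which drives granule fusion, had signals of 2.27, 2.28, 2.93 and 2.27 in LNCaP cells, against 6.78, 7.23, 7.23 and 6.77 in 22Rv1 cells. CALCB, which encodes a calcitonin gene-related peptide, was -5.64 apart and the neuronal enolase ENO2 -3.96. For these 4 genes LNCaP was below 22Rv1 on all arrays, and only ENO2 was detected in LNCaP. CGA, the alpha subunit of glycoprotein hormones, was under the floor on all LNCaP arrays and above it on all 22Rv1 arrays. The granule protein SCG2 was likewise under the floor in LNCaP, and in 22Rv1 it had signals of 4.19, 8.17, 7.71 and 7.82. In both genes the treated 22Rv1 arrays lay far above the untreated one. The markers higher in LNCaP were GCG and DDC, the decarboxylase that makes dopamine and serotonin, with signals of 10.74, 10.30, 11.60 and 12.09 in LNCaP cells, against 6.84, 6.51, 7.11 and 7.47 in 22Rv1 cells. Limma called 2 of 13 tested members higher and 11 lower. Many members passed its filter through their 22Rv1 signals, and its fit includes the untreated pair, so these calls are no separate check. Of the defining granule markers, CHGA was at 2.79 in untreated LNCaP and 4.80 in untreated 22Rv1, and SYP at 3.86 and 6.64. Without treatment both were thus under the floor in LNCaP and above it in 22Rv1. For SYP the limma adjusted p over the 4 treatments was 0.000236, with the same limit.

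Cancer-testis antigens, normally silent outside the germ line, had the list median furthest from 0. Of 22 with a probe set 8 were detected, and 5 were lower in LNCaP by more than 2, with a median of -5.22. Of the 8, 5 reached the floor in untreated LNCaP and 8 in untreated 22Rv1, and with signals under 4 set to 4 the median was -4.74. CTAG2 had signals of 4.68, 4.12, 3.11 and 2.38 in LNCaP cells, against 12.84 to 13.06 on the 22Rv1 arrays. SSX3 (-7.98), SSX1 (-7.85), MAGEA4 (-7.12) and MAGEA1 (-3.31) were also lower in LNCaP, and PRAME (1.70) was higher in LNCaP in all 4 pairs. Members of the SSX and MAGEA families are near-identical in sequence, so that a probe set may also read a relative. Limma called 3 members higher and 5 lower, which is no separate check for members that passed the filter through 22Rv1. BRDT, a testis gene outside this list, was 6.79 higher in LNCaP.

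Regulators of lineage differed gene by gene. Among 24 detected lineage transcription factors 4 were higher in LNCaP by more than 2 and 5 lower. TFAP2A had signals of 4.84, 5.02, 3.89 and 3.25 in LNCaP cells, against 10.81, 10.52, 8.61 and 7.71 in 22Rv1 cells. Its relative TFAP2C went the other way, with signals of 7.19, 6.98, 5.49 and 2.77 in LNCaP cells, against 2.39, 2.40, 2.39 and 2.57 in 22Rv1 cells. The forkhead factor FOXD1 (-6.23) and GATA3 (-4.13) were lower in LNCaP and the epithelial factor EHF (2.76) was higher. Of 12 detected HOX genes 5 were lower in LNCaP by more than 2 and 0 higher, with HOXC10 at 2.27, 2.27, 2.27 and 2.43 in LNCaP cells, against 8.30, 8.16, 7.49 and 7.67 in 22Rv1 cells. Of these HOX genes 6 reached the floor in untreated LNCaP and 12 in untreated 22Rv1, so many entered the list only through 22Rv1. Their median was -1.38, and -0.83 with signals under 4 set to 4. Limma called 2 of 9 tested HOX genes higher and 5 lower. Of 13 detected imprinted genes 3 were higher, namely PEG3, GRB10 and NDN (3.32), and 4 lower, among them the neighbours SGCE (-6.27) and PEG10 (-4.25).

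Adhesion genes differed in both directions, and the surface adhesion genes other than cadherins and integrins leaned to 22Rv1. Of 19 detected cadherins, catenins and desmosome genes 3 were higher in LNCaP by more than 2 and 3 lower, with a median of -0.48. CDH26 had signals of 9.56, 9.56, 8.88 and 9.43 in LNCaP cells, against 2.31, 2.42, 2.27 and 2.27 in 22Rv1 cells, whereas CDH3, placental cadherin, had signals of 3.67, 2.39, 2.75 and 4.19 in LNCaP cells, against 9.03, 8.44, 8.50 and 8.25 in 22Rv1 cells. Both cadherins separated the lines on every array, in opposite directions. The desmosomal cadherin DSC2 (3.91) and the nectin NECTIN3 (3.30) were higher in LNCaP, with gaps that narrowed to 0.75 and 1.62 with actinomycin D and caffeine. Of 24 detected tight junction and polarity genes 2 were higher, the scaffold TJP1 (2.53) and the strand protein OCLN (2.37), and 2 were lower, CLDN11 (-5.57) and PARD3 (-3.86). Of 11 detected integrins 1 was higher, ITGA6, and 0 were lower. Among 19 other surface adhesion genes 0 were higher by more than 2 and 4 were lower, namely CD44, TSPAN8 (-3.73), the complement regulator CD55 (-3.56) and ALCAM (-2.81), and limma called 4 higher and 10 lower.

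Matrix genes differed in both directions. Of 22 detected matrix and basement membrane genes 5 were higher in LNCaP by more than 2 and 8 lower, with a median of -0.67 that became 0.07 when the probe sets of each gene were averaged. FN1, fibronectin, had signals of 12.98, 12.69, 13.24 and 13.18 in LNCaP cells, against 9.25, 10.80, 10.47 and 10.81 in 22Rv1 cells. The basement membrane genes NID1 (-4.70) and LAMB1 (-2.76) and the proteoglycan SPOCK1 (-5.40) were lower in LNCaP, as were the matricellular genes TNC (-4.60) and THBS1 (-3.98), while LAMA1 (2.34), COL4A6 (2.67) and COL6A1 (2.05) were higher. The collagen COL1A1 was the 1 of 1602 genes apart by more than 2 whose sign was the opposite in all treated pairs, with signals of 8.50, 8.39, 5.29 and 5.82 in LNCaP cells, against 5.86, 8.65, 8.49 and 7.96 in 22Rv1 cells. Its other detected probe sets were -0.33 and 1.93 apart without treatment. Of 32 detected extracellular proteases and inhibitors 7 were higher and 5 lower. Besides MME, LNCaP had more of the protease inhibitor SLPI (5.50) and the cathepsins CTSV (4.02) and CTSH (2.82), and besides TIMP1 and SPINK1 it had less of SERPINB1 (-6.36), an inhibitor of neutrophil proteases, and PRSS21 (-5.22).

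Steroid-conjugating enzymes were among the clearest metabolic differences. UGT2B17, UGT2B15 and UGT2B28 encode enzymes that attach glucuronic acid to androgens. UGT2B17 had signals of 8.97, 8.61, 8.96 and 9.44 in LNCaP cells, against 2.39, 2.35, 2.37 and 2.34 in 22Rv1 cells. UGT2B15 had signals of 10.41 to 11.66 in LNCaP cells, against 5.03 to 6.71 in 22Rv1 cells, and UGT2B28 was 6.02 higher in LNCaP. The lines were apart on all arrays in each of these genes, and since the genes are close copies of each other a probe set may also read a relative. Of the whole steroid list 19 genes were detected, 4 higher by more than 2 and 3 lower, with a median of 0.49. The fourth higher gene was CYP11A1 (4.40), the side-chain cleaving enzyme, and the lower ones were CYP1A1 (-5.20) and CYP1B1 (-4.70), which respond to aryl hydrocarbons, and CYP4F8 (-2.40).

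Glutathione and aldehyde detoxification genes went both ways, with 5 of 34 detected higher by more than 2 and 10 lower. The glutathione transferases GSTM1 (-4.84), GSTM2 (-5.45), GSTM4 (-4.87) and GSTA4 (-2.93) were lower in LNCaP. GSTM2 had signals of 3.18, 3.21, 3.10 and 3.15 in LNCaP cells, against 8.63, 8.34, 8.96 and 8.86 in 22Rv1 cells. The mu class genes are near-identical copies and their probe sets may share targets. NQO1 (-3.89), a quinone reductase, and ALDH1A1 (-3.68), a retinal dehydrogenase, were lower as well. Its relative ALDH1A3 had signals of 8.99, 9.49, 8.79 and 8.66 in LNCaP cells, against 2.70, 2.40, 3.27 and 3.04 in 22Rv1 cells. These retinal dehydrogenase transcripts thus differed between the lines in opposite directions. HMOX1, heme oxygenase, was 2.26 higher in untreated LNCaP and 5.72 and 5.55 higher on the arrays with actinomycin D.

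Metallothioneins and some enzymes of arginine metabolism were higher in LNCaP. Of 21 detected metallothionein and zinc transporter genes 6 were higher in LNCaP by more than 2 and 0 lower, and limma called 10 higher and 3 lower. MT2A, a metallothionein that binds zinc and copper, had signals of 12.92, 13.50, 13.60 and 13.09 in LNCaP cells, against 10.33, 11.24, 11.31 and 11.38 in 22Rv1 cells. MT1G (3.12), MT1X (2.86), MT1H (2.50) and MT1F (2.48) were higher too, with smaller gaps on the treated arrays: MT1G was 2.39, 1.71 and 0.92 apart. The zinc transporter SLC30A4 was 6.05 higher. ASS1, which makes argininosuccinate, had signals of 10.34, 10.14, 10.97 and 10.83 in LNCaP cells, against 4.32, 3.41, 3.85 and 3.44 in 22Rv1 cells. ARG2, the mitochondrial arginase, was 5.37 higher and the serine synthesis enzyme PHGDH 2.83 higher. Of the 35 detected amino acid and polyamine genes 4 were higher by more than 2 and 0 lower, and limma called 14 higher and 8 lower. The fourth was TDO2, which degrades tryptophan, with signals of 4.80, 4.0, 10.97 and 11.47 in LNCaP cells and 2.27 on all 22Rv1 arrays.

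**Figure D4:**
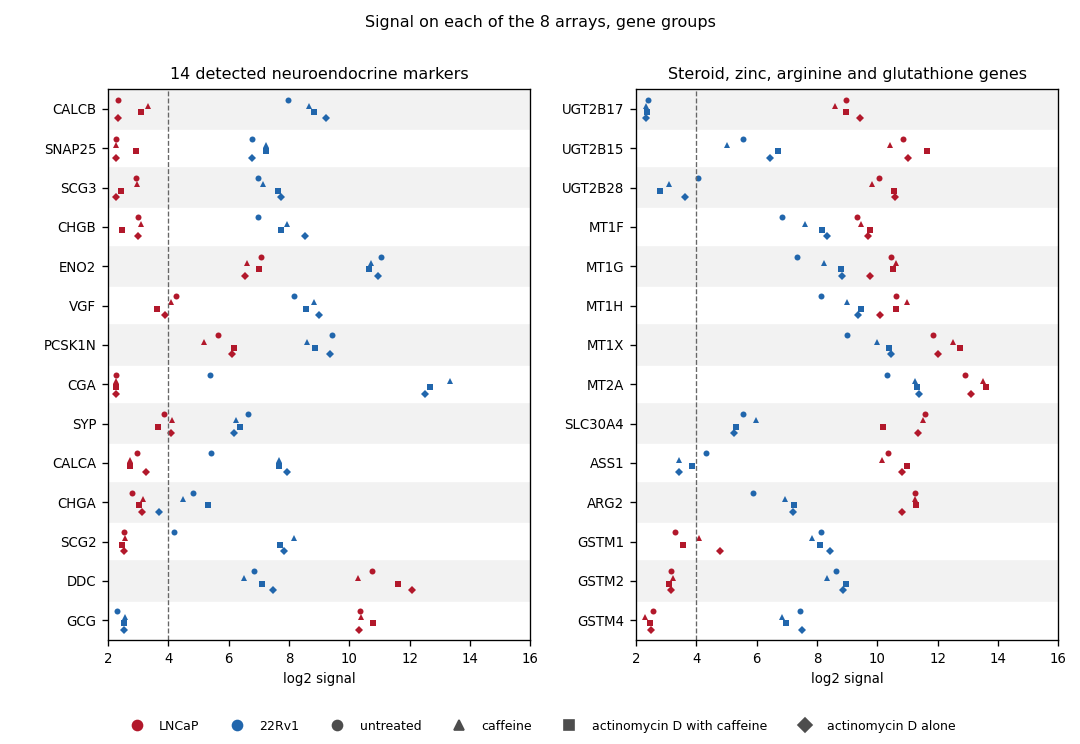
Log2 signal (x axis) on each of the 8 arrays for the 14 detected neuroendocrine markers (left) and for steroid, zinc, arginine and glutathione genes (right), with LNCaP in red, 22Rv1 in blue, marker shape for the treatment and a dashed line at the detection floor of 4. LNCaP lies at higher signals in the left-hand rows of DDC and GCG and at lower ones in the other rows, and on the right only the GSTM rows have LNCaP lower.

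Single genes of carbon and lipid metabolism were far apart. Over all detected genes 6.78% were higher in LNCaP by more than 2 and 7.43% lower, and the counts here are to be read against these shares. Limma called 7 of 32 glycolysis and pyruvate genes higher and 13 lower. Past the cut-off of 2 there were 0 higher in LNCaP and 3 lower: PGAM2 (-6.89), a phosphoglycerate mutase of muscle, PDK4 (-5.24), a kinase that shuts the pyruvate dehydrogenase, and ENO2. PDK4 had signals of 2.73, 2.66, 2.46 and 2.68 in LNCaP cells, against 7.97, 12.83, 11.64 and 11.43 in 22Rv1 cells, where the treated arrays were the higher ones. LDHA was 0.21 apart and GAPDH -0.40. Of 37 detected fatty acid and cholesterol genes 5 were higher and 5 lower, the desaturase FADS2 (3.95) and the acyl-CoA synthetase ACSL1 (3.82) among the higher, and limma called 11 of 36 higher and 16 lower. The fatty acid carrier FABP5 had signals of 2.60, 2.63, 2.52 and 2.27 in LNCaP cells, against 10.38, 9.65, 9.96 and 10.30 in 22Rv1 cells, and its relative FABP7 was -6.49 apart. Of 35 detected mitochondrial carriers 1 was higher, SLC25A33 (2.07), and 3 were lower, UCP2 and SLC25A43 (-4.82) and SLC25A29 (-2.06).

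Among signalling genes, the TGF-beta family and its targets differed at several levels. TGFB1, the ligand, had signals of 2.52, 2.39, 2.45 and 2.52 in LNCaP cells, against 9.61, 8.84, 8.62 and 9.63 in 22Rv1 cells, but its other detected probe set was only -0.11 apart without treatment. TGFBR3, the co-receptor betaglycan, had signals of 9.34, 9.23, 9.84 and 10.48 in LNCaP cells, against 4.67, 4.19, 4.19 and 4.56 in 22Rv1 cells. The decoy receptor BAMBI was higher in LNCaP as well. The ID genes, inhibitors of helix-loop-helix factors and targets of BMP signals, were lower in LNCaP in all 4 members: ID4 (-6.18), ID2 (-5.09), ID1 (-3.58) and ID3 (-3.16). ID1 had signals of 8.59, 8.06, 7.44 and 6.43 in LNCaP cells, against 12.16, 12.23, 9.41 and 8.38 in 22Rv1 cells. The ligand BMP2 (-4.37) and the receptor BMPR1B (-4.48) were lower as well. Of the 36 detected genes of the list 6 were higher by more than 2 and 7 lower, and limma called 8 of 35 higher and 16 lower.

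The receptor tyrosine kinases past the cut-off were all lower in LNCaP, and growth factors differed in both directions. Of 23 detected receptor tyrosine kinases 0 were higher by more than 2 and 5 were lower, EPHA4 (-6.59), EPHA7 (-4.91), FGFR3 (-4.68), EPHA3 (-3.83) and ERBB4 (-3.69), and limma called 1 of 20 higher and 10 lower. FGFR3, a receptor for fibroblast growth factors, had signals of 4.85, 5.10, 5.16 and 4.84 in LNCaP cells, against 9.53, 9.25, 9.51 and 9.32 in 22Rv1 cells. HGF, the ligand of the MET receptor, had signals of 2.95, 2.55, 3.59 and 2.27 in LNCaP cells, against 9.19, 11.02, 10.91 and 10.86 in 22Rv1 cells. MDK and IGF1 (-3.86) were lower too. Of 17 detected growth factor and chemokine genes 4 were higher, ACKR3, CCL2 (4.87), CCL20 (4.78) and GDF15 (2.04), and 4 lower, and limma called 5 of 14 higher and 4 lower. CCL20 had signals of 7.05, 9.67, 11.28 and 11.90 in LNCaP cells and 2.27 on all 22Rv1 arrays. Of 30 detected WNT pathway genes 1 was higher, the ligand WNT5A (3.30), and 4 were lower, with the inhibitor DKK1 at -5.82 untreated and -0.13 with actinomycin D and caffeine.

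Inside the cell, subunits of G proteins and of phosphoinositide 3-kinase differed. Of 27 detected G protein genes 3 were higher in LNCaP by more than 2 and 5 lower. Besides RGS2 these were the alpha subunits GNAI2 (-3.77) and GNAQ (-3.30), the regulator RGS11 (-3.79) and GNG4 (-2.38), while RGS10 (3.0), GNAL (3.55) and GNB4 (2.08) were higher. PIK3CD, a catalytic subunit of phosphoinositide 3-kinase best known from leukocytes, had signals of 9.15, 9.67, 8.92 and 8.52 in LNCaP cells, against 3.12, 2.34, 3.13 and 3.11 in 22Rv1 cells, whereas its other detected probe set was -0.10 apart without treatment. The regulatory subunits PIK3R1 (2.78) and PIK3R3 (2.24) were higher in LNCaP as well. AKT2, a kinase downstream, was -2.16 apart by its brightest probe set and -1.42 and 0.62 by others. Also lower in LNCaP was the adaptor IRS2, with signals of 8.81, 10.87, 9.46 and 9.49 in LNCaP cells, against 12.17, 13.60, 11.56 and 11.93 in 22Rv1 cells. Of 29 detected genes of this pathway 3 were higher and 2 lower.

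The listed antigen presentation and interferon genes leaned to LNCaP. Of 37 detected 6 were higher by more than 2 and 1 lower, with a median of 0.67, and limma called 21 higher and 4 lower. HLA-DMA, which loads peptides on class II molecules, had signals of 6.54, 6.65, 7.16 and 7.26 in LNCaP cells, against 2.60, 2.63, 2.62 and 2.61 in 22Rv1 cells. IFITM1 (4.32), an antiviral membrane protein, and PSMB10 (3.23), a subunit of the immunoproteasome, were higher as well, and HLA-B was 1.74 apart. IFIT1, an interferon-induced RNA-binding protein, had signals of 5.97, 4.86, 8.43 and 9.31 in LNCaP cells, against 2.35, 2.37, 2.35 and 2.35 in 22Rv1 cells. In this gene and in IFI44 (1.83 untreated, 6.79 and 6.75 with actinomycin D) the gap was wider on the arrays with actinomycin D. ISG20 (-3.34), an exonuclease induced by interferon, was the lower gene of the list. The class II gene HLA-DQB1, outside this list, was -3.60 apart, with other detected probe sets from -6.96 to 2.60.

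Of 28 detected mismatch repair and tumour suppressor genes 3 were higher in LNCaP by more than 2 and 3 lower. MSH3, which recognises insertion and deletion loops, had signals of 7.36, 8.05, 7.80 and 7.55 in LNCaP cells, against 3.80, 4.83, 5.53 and 4.57 in 22Rv1 cells, and the related gene MSH6 was -0.21 apart. Another MSH3 probe set was 0.99 apart. The other genes past 2 were PDS5B and CYLD (2.18) on the higher side, with other CYLD probe sets at -0.27 and -0.79, and CLPTM1, PARD3 and TUSC3 (-2.36) on the lower side. The study selected 12 probe sets for sequencing partly by this untreated difference, so their values are given as a description. The plot of gene lists holds 10 of their gene names, by the brightest probe set of each. For LNCaP it sought probe sets lower in that line. That of CLPTM1 was at 4.26, 5.89, 5.50 and 3.73 in LNCaP cells, against 9.66, 9.17, 9.08 and 9.64 in 22Rv1 cells, and that of PARD3, a polarity gene, at 3.23, 6.13, 6.29 and 4.72 in LNCaP cells, against 7.09, 7.98, 8.49 and 8.39 in 22Rv1 cells. Those of GTPBP2 (-2.99), ANKRD28 (-2.63), VRK3 (-2.58) and LMNTD2-AS1 (-3.07) were also lower, as was the one the study names AFF1, which the annotation used here gives to AFF3 (-5.14). For 22Rv1 it sought probe sets lower in that line: that of PDS5B, a cohesin regulator, was at 10.03, 10.12, 10.07 and 9.81 in LNCaP cells, against 5.94, 8.57, 7.80 and 6.36 in 22Rv1 cells. Another one of PDS5B (3.83) and those of TTLL7 (4.07), EIF5 (2.11) and AGO2 (2.61) were likewise lower in 22Rv1. Other probe sets of these genes did not all share the sign: the brightest of ANKRD28 was 1.04 apart, and another of EIF5 -0.32.

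Markers of other cell types were checked with the same floor. None of 12 leukocyte markers and 2 of 10 endothelial markers were detected, and the defining endothelial genes PECAM1, VWF, CDH5 and KDR were at 2.27 to 2.34 on the untreated arrays of both lines. Of 17 fibroblast and smooth muscle markers 6 were detected, 1 higher by more than 2 and 3 lower. LUM, the matrix proteoglycan lumican, had signals of 2.27, 2.38, 2.38 and 2.46 in LNCaP cells, against 10.21, 9.42, 10.04 and 9.97 in 22Rv1 cells. VIM, the intermediate filament of mesenchymal cells, had signals of 6.58, 6.74, 9.64 and 9.34 in LNCaP cells, against 11.32, 11.12, 11.25 and 11.30 in 22Rv1 cells, and DCN was -3.17 apart. Of the defining markers, COL3A1, PDGFRA, MYH11 and DES were under the floor in both lines, while LUM, DCN, ACTA2 and COL1A1 were detected. COL1A1 was at 8.50 in untreated LNCaP and 5.86 in untreated 22Rv1. The intestinal genes VIL1 (-4.37) and CDH17 (-2.65) and albumin, ALB (-1.62), were lower in LNCaP.

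The position of the genes was read from the RefSeq table of GRCh38.p14, with no test. Chromosome 12 stood apart: its 621 detected genes had a median of -0.78, with medians of -0.72, -0.77 and -0.73 in the treated pairs, while 22 other chromosomes had untreated medians of -0.22 to 0.44. On it 110 genes (17.7%) were lower in LNCaP by more than 2 and 16 (2.58%) higher. The highest median was that of chromosome 13, at 0.44, where 13.5% of 192 genes were higher by more than 2. Runs of at least 5 neighbouring detected genes, each apart by more than 1 in the same direction, were also listed. This rule fixes the shared direction of a run and sets a lower bound on the size of its median. Over all detected genes 2201 were higher by more than 1 and 2087 lower, and whether the runs exceed what these shares would give was not tested. The UGT2B genes on chromosome 4 stood in a run of 5 detected neighbours higher in LNCaP with a median of 5.31, the histone genes H1-2, H2BC4, H2AC6, H2BC5 and H2BC6 on chromosome 6 in a run with a median of 5.22, and 4 metallothionein genes on chromosome 16 in a run with a median of 2.50. On chromosome 10 a run of 10 detected genes, from ACTA2 over IFIT2 and IFIT1 to HECTD2, was higher with a median of 1.77, and on chromosome 12 KCNMB4, PTPRB, TSPAN8, LGR5 and ZFC3H1 were lower with a median of -3.73. Histone and metallothionein genes are close copies, so neighbours can share signal.

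**Figure D5:**
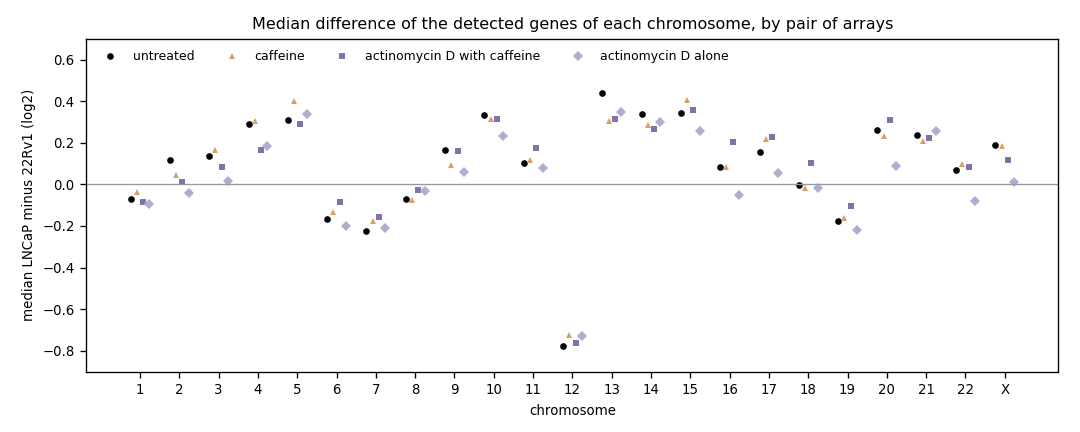
Median LNCaP minus 22Rv1 difference (log2, y axis) of the detected genes on each chromosome (x axis), with 1 marker for each of the 4 pairs of arrays. Chromosome 12 lies between -0.78 and -0.72 in all pairs, below every other chromosome.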

How the data were processed

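mRNA was measured in LNCaP and 22Rv1 cells on Affymetrix U133 Plus arrays, 8 in all, 1 per line and treatment. The authors made the deposited log2 signals with gcRMA, which corrects background by probe sequence, equalises the distributions of the 8 arrays and gives 1 value per probe set. RMA and GCRMA appear, unversioned, in the submitters' processing notes. The signals were used as deposited. gcRMA draws low signals together, so a difference with 1 line under the floor of 4 depends on its background model. For arrays the number of arrays limits the precision.

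Genes were named from the platform annotation: 41097 probe sets have 1 symbol, 1801 several and 11777 none, and 41043 matched RefSeq (GRCh38.p14). Probe sets with several symbols or none are counted but not named. Line differences were tested with limma 3.58.1 in R 4.3.3 (terms for treatment and line, 3 residual degrees of freedom, Benjamini-Hochberg adjustment, two-sided) and checked on simulated data. The rest used python 3.11.15, numpy 2.4.6, pandas 2.3.3 and matplotlib 3.10.9.

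Named are the 12 highest and 12 lowest genes with 1 sign in all pairs, the 8 at each end with signals of at least 6 in both lines, the 4 list members furthest apart, defining markers, the genes the study sequenced and genes with the opposite sign in all treated pairs. Further list members were named after their values were seen. The comparison and the 35 gene lists were chosen with earlier results of these data known. Alternatives were other cut-offs, floors, filters, centring, variance models, no block, leaving out a pair, and other rules for a gene's probe set.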

Additional observations from a re-analysis of the deposited data

Results flagged for a closer look

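COL1A1, the alpha chain of type I collagen, was 2.64 higher in untreated LNCaP than in untreated 22Rv1 and lower in LNCaP in all 3 treated pairs, with differences of -0.25 with caffeine, -3.19 with actinomycin D and caffeine and -2.14 with actinomycin D alone. The change of sign between untreated and treated pairs rests on single arrays and was not tested.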

How the results depend on the processing

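With a cut-off of 1 in place of 2, 4648 probe sets were higher and 4371 lower in untreated LNCaP, and with a cut-off of 3, 660 and 798. A floor of 6 and signals under 4 set to 4 come to the same rule here, and each left 1299 higher and 1377 lower. Centring on the median left 1700 and 1733, so these counts stayed within 1.5 times. No floor and quantile normalization done again gave the main counts, which they could hardly change. A difference of more than 2 already put 1 signal above the floor, and the arrays already shared 1 distribution. In limma, testing all probe sets with no filter called 3578 higher (3823 lower), a test over more probe sets, while no treatment block called 4643 higher and 4758 lower. Leaving out each pair in turn called 4622 to 5228 higher and 4415 to 5010 lower. The share keeping its sign was 94.48%, and it was 76.14% where each treated pair had to be apart by at least 1. Under other floors and other rules for a gene's probe set, list medians stayed within 1 SD of their 4 pairs in 91 cases, moved further in 44 and reversed in 0 over 34 lists, and differences of 165 named genes stayed in 189, moved in 141 and reversed in 0. A reversal was counted only for medians of at least 1 and gene differences of at least 2 in size. The pairing by treatment was part of the fit, and the labels carry no replicate numbers for a further replicate block. The untreated values rest on 1 array per line, signals near the floor have no reliable order, and cross-hybridization between close gene copies was not tested.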
